A study of Arabidopsis thaliana with 4 samples.

Results

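The genes described are 10 transcription factors of Arabidopsis thaliana that set root hair fate and drive root hair growth. They were listed by gene identifier, with earlier results of these data known, and all 10 were found among the 27655 genes of the deposited table. The bHLH factors of hair growth are RHD6 (AT1G66470), RSL1 (AT5G37800), RSL2 (AT4G33880), RSL4 (AT1G27740), LRL1 (AT2G24260), LRL2 (AT4G30980) and LRL3 (AT5G58010). The cell fate factors are GL2 (AT1G79840), CPC (AT2G46410) and WER (AT5G14750). RNA came from roots of wild-type Columbia seedlings after 8 days of growth. The medium held 625 µM phosphate for the plus_Pi group and 5 µM for the low_Pi group, with 2 libraries in each. Dark growth is mentioned in the name of the deposited table alone. The values are polyadenylated RNA sequencing values that the authors call normalized counts, and the depth behind them is unknown.

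Before any result, the libraries were compared. Column totals lay between 38831704 and 44635953. With the values taken as if they were read counts, the chi-square per gene was 0.284 between the low_Pi columns and 0.432 between the plus_Pi columns, where independent counts give about 1, and 222 between replicate 1 of the groups. Since the true depth is unknown, this does not show whether same-group libraries are independent. As a caution each group was counted as 1 sample, and no p-value or standard deviation is given. The labels do not say whether same-group libraries came from separate cultures. IPS1 (AT3G09922), a phosphate starvation marker, had 27943 and 26144 in low_Pi, against 99 in plus_Pi replicate 1 and 412 in plus_Pi replicate 2, so single genes could differ widely between same-group columns. The low_Pi column of replicate 2 was matched by name to its group only. Differences are log2(value + 41.5) in low_Pi minus plus_Pi, averaged over columns, a scale that understates changes of low genes. The median of the 18729 genes compared was -0.26. Median-of-ratios scaling moved that median by 0.26, trimmed-mean scaling by 0.24 and quantile normalization by 0.18, and the differences of members under 2-fold are therefore also given relative to the median gene.

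In the root epidermis, files of hair cells alternate with files of non-hair cells. WER, an R2R3 MYB factor, acts in non-hair cells with the bHLH proteins GL3 and EGL3 and the WD40 protein TTG1 to switch on GL2, which holds back the hair programme. CPC, a small R3 MYB protein that moves between cells, competes with WER in future hair cells. There RHD6 and RSL1 start hair formation and act upstream of RSL2 and RSL4, which drive tip growth, as the LRL genes do. Phosphate shortage is known to give Arabidopsis longer and denser root hairs, and auxin transport and ARF19 are known to act upstream of RSL2 and RSL4 in that response.

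Of the 10 factors, RSL2 and LRL3 passed a 2-fold gain in low_Pi and none passed a 2-fold loss. Among all genes compared, a gain of that size was found for 4.58% and a loss for 4.47%, or 857 and 838 genes, and 1235 and 428 with median-of-ratios scaling. All 10 members passed the minimum mean of 41.5, and their median difference was -0.36. The columns of the groups overlapped for none of the 10, but the same held for 84.4% of all genes. Of the members, 4 lay above 0 and 6 below 0. At least 70.8% of all genes compared also lay below 0, since that share lay below the cell fate gene MYC1, at -0.009.

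**Figure D1:**
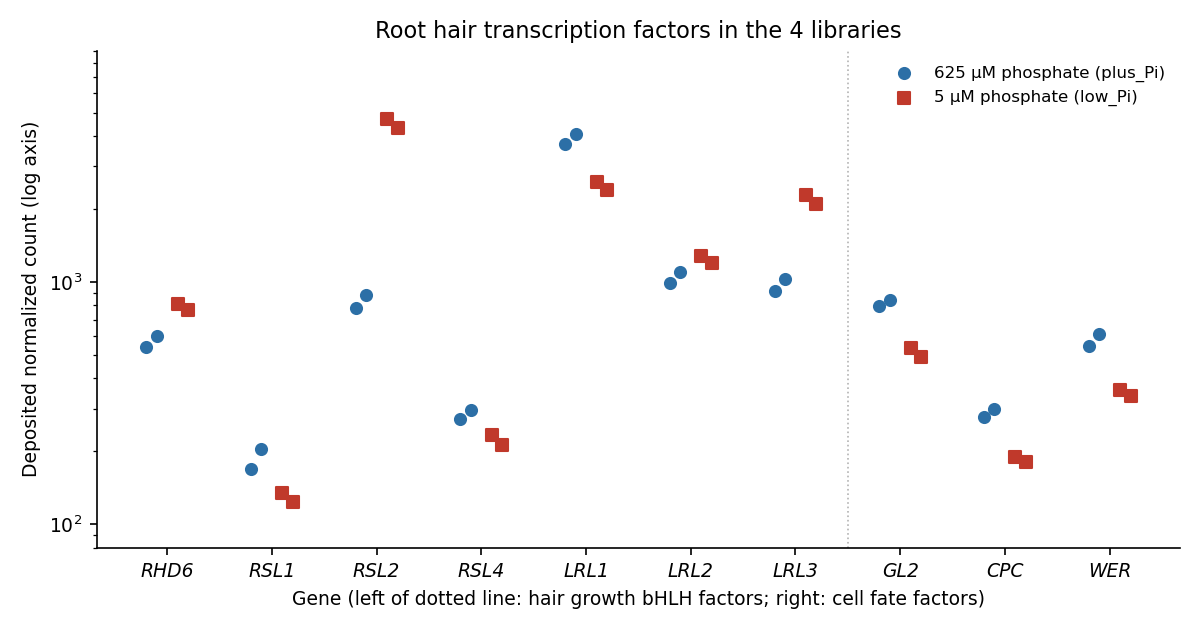
Deposited normalized count (log axis) of each member in the plus_Pi libraries (blue circles) and the low_Pi libraries (red squares), with replicate 1 left of replicate 2 in each pair. RSL2 went from 778 and 886 to 4692 and 4324, while the cell fate factors GL2, CPC and WER all sat lower in low_Pi.

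The phosphate response factor PHR1 is known to bind a short sequence called P1BS, GNATATNC, and the members' upstream sequences were searched for it because of the phosphate contrast. It was present in the 1000 bases before the annotated start of 4 of the 10 members, against 20.3% of all protein-coding genes. The members with a match were RSL2 and LRL3, which were higher in low_Pi, and LRL1 and GL2, which were lower by under 2-fold. Within 250 bases none of the members had a match, against 5.46% of all genes. In the longer window, on both strands, TGTCTC, which auxin response factors bind, was in 4 of the 10 members (RHD6, RSL1, GL2 and WER) and 39.6% of all genes. TAAATGNA, which factors of the GL2 class bind, was in 5 of the 10 (RSL1, RSL4, LRL2, LRL3 and CPC) and 30.8% of all genes. The G box CACGTG, which many bHLH factors bind, was in 1 of the 10 (WER) and 14.8% of all genes. A match describes the letters only. The stretches below are 30 bases each, read 5′ to 3′ on the strand of the gene from RefSeq's TAIR10.1 assembly, with the match in capitals. The deposited values carry no coordinates.
RSL2: tcaatatatagGAATATTCttactatatgt
LRL3: gatctggcgccGGATATGCatggtggcgga
LRL1 distal: accttttgagtGAATATCCaagcctctatt
LRL1 proximal: ggattggacaaGGATATCCtccttgtattt
GL2: acccatatattGTATATGCtaattcttatc
The RSL2 stretch is chr4:16241990-16242019 on the minus strand, with the match 832 to 839 bases upstream of the start. LRL3 is chr5:23485576-23485605 on the minus strand, 573 to 580 bases upstream and inside the neighbouring gene AT5G58020. The LRL1 stretches are chr2:10323110-10323139 and chr2:10323064-10323093 on the minus strand, with matches 698 to 705 and 652 to 659 bases upstream. GL2 is chr1:30036274-30036303 on the plus strand, 664 to 671 bases upstream.

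Among the class II RSL genes, which promote hair elongation, RSL2 stood apart from RSL4. RSL2 had 4692 and 4324 in low_Pi and 778 and 886 in plus_Pi, a 5.42-fold ratio of the means and a log2 difference of 2.38. That placed it 175th from the top of the 18729 genes compared. RSL4, which sets hair length, had 234 and 212 in low_Pi and 273 and 297 in plus_Pi, a log2 difference of -0.30, or -0.05 relative to the median gene. RSL4 was thus near the middle of all genes, with 45.3% of them below it. The ratio of RSL2 to RSL4, which no rescaling of a library can change, was 20.1 and 20.4 in low_Pi and 2.85 and 2.98 in plus_Pi.

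RSL3 (AT2G14760), a further class II gene, had 337 and 317 in low_Pi and 84 and 104 in plus_Pi, a log2 difference of 1.45. This call depended on the pseudocount, since with 208 in place of 41.5 the difference was 0.83. RSL5 (AT5G43175), the remaining class II gene, was listed at 6 and 2 in low_Pi and at 0 in both plus_Pi columns, under the minimum. Per kb of exon, the class II genes summed to 3680 in low_Pi and 885 in plus_Pi. RSL2 made up 88.8% of that sum in low_Pi and 68.2% in plus_Pi, while RSL4 made up 4.53% and 24.1%. RSL2 was thus the largest part of the class II sum in both groups, and its share was larger in low_Pi.

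**Figure D2:**
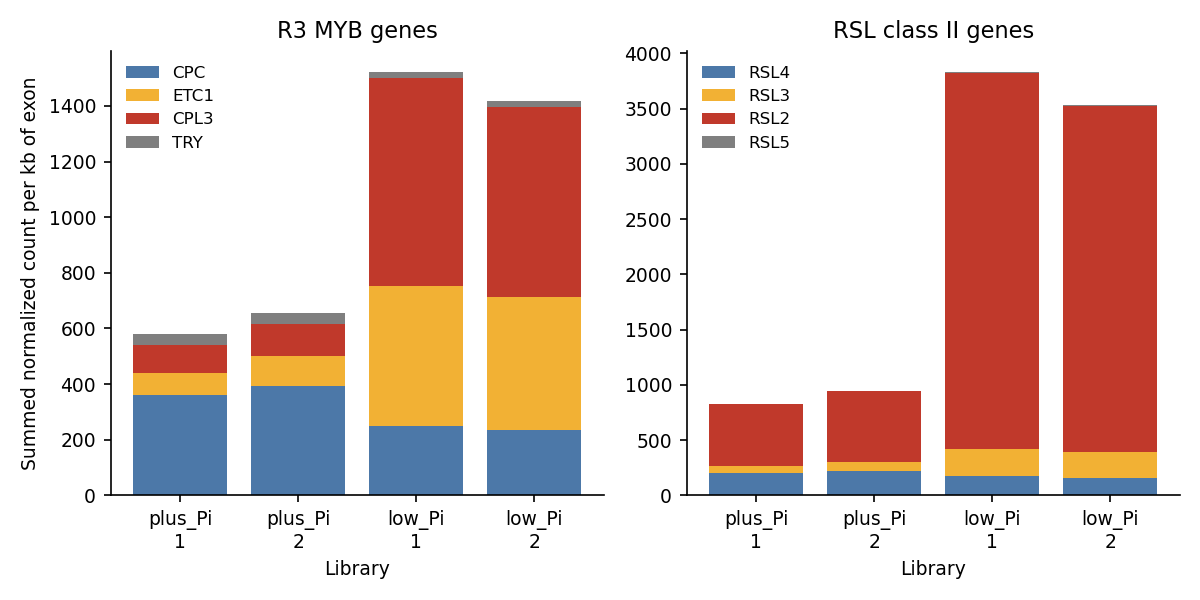
Normalized count per kb of exon (longest annotated transcript), stacked by gene, in each library for the listed R3 MYB genes (left) and the RSL class II genes (right). RSL2 fills 88.8% of the class II bars in low_Pi, and CPL3 and ETC1 fill most of the R3 MYB bars in low_Pi, where CPC filled 61.2% in plus_Pi.

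The class I genes, which start hair formation, lay on either side of 0. RHD6 had 815 and 769 in low_Pi and 538 and 601 in plus_Pi, a 1.39-fold ratio of the means and a log2 difference of 0.45. RSL1, which acts together with RHD6, had 135 and 124 in low_Pi and 169 and 204 in plus_Pi, a log2 difference of -0.41. Neither reached 2-fold. Relative to the median gene, RHD6 was at 0.70 and RSL1 at -0.16. RSL2 changed more than RHD6, the gene known to act upstream of it: the RSL2 to RHD6 ratio was 5.76 and 5.62 in low_Pi and 1.45 and 1.47 in plus_Pi.

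The LRL genes, bHLH factors of hair growth related to a Lotus japonicus root hair gene, split in direction. LRL3 had 2279 and 2107 in low_Pi and 920 and 1029 in plus_Pi, a 2.25-fold ratio and a log2 difference of 1.14. LRL2 had 1284 and 1203 against 991 and 1102, a log2 difference of 0.24, or 0.50 relative to the median gene. LRL1 had 2577 and 2408 against 3724 and 4064, a log2 difference of -0.63. LRL3 was thus the LRL member past 2-fold, and LRL1 was 1.56-fold lower in low_Pi by the ratio of its means. LRL1 was at -0.38 relative to the median gene, and 20.7% of all genes were at least 1.5-fold lower. The LRL3 to LRL1 ratio was 0.884 and 0.875 in low_Pi and 0.247 and 0.253 in plus_Pi. The other family members, LRL4 (AT4G02590, also UNE12) and LRL5 (AT1G03040), were at 0.35 and 0.04 on the log2 scale. Of the 4 RSL and LRL genes outside the 10 factors, 3 passed the minimum, and RSL3 was the 1 with a 2-fold gain.

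**Figure D3:**
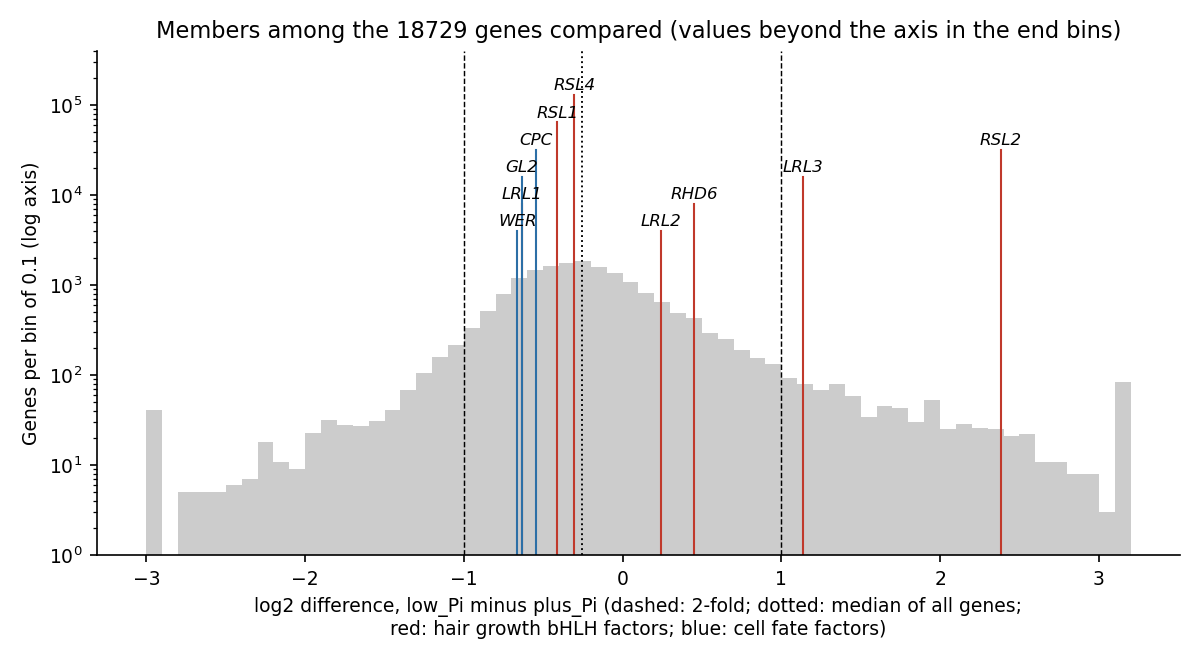
Distribution of log2 differences (low_Pi minus plus_Pi) of the 18729 genes compared, on a log count axis, with the members as labelled lines (red for bHLH factors, blue for cell fate factors; the LRL1 and GL2 lines coincide). RSL2 at 2.38 and LRL3 at 1.14 lie beyond the dashed 2-fold line, and the other 8 members lie between the 2-fold lines.

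The cell fate factors were all lower in low_Pi by under 2-fold. WER had 359 and 340 in low_Pi and 547 and 609 in plus_Pi, a log2 difference of -0.66. GL2, which acts downstream of WER in non-hair cells, had 535 and 492 against 794 and 845, a log2 difference of -0.63. CPC had 189 and 180 against 276 and 300, a log2 difference of -0.54. These genes therefore lay close together, below the median gene by 0.41, 0.38 and 0.29. The WER to GL2 ratio was 0.671 and 0.691 in low_Pi and 0.689 and 0.721 in plus_Pi, so these factors of non-hair cells stood in nearly the same proportion in both groups. The GL2 locus overlaps AT1G79850 on the opposite strand by 198 bases and the lncRNA gene AT1G09927 on the same strand by 155 bases, which is not analysed here and which a stranded count would not separate from GL2. The mean value of AT1G79850 was 479 against 666 for GL2, and whether the counting used strand is not given in the sources used here.

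Among the 14 other cell fate genes, 11 passed the minimum, of which 2 showed a 2-fold gain and none a 2-fold loss. Their median was -0.19, beside -0.26 for all genes, and 0.05 with median-of-ratios scaling, beside -0.0005 for all genes. The higher genes were CPL3 (AT4G01060, also ETC3) and ETC1 (AT1G01380), R3 MYB relatives of CPC. CPL3 had 483 and 441 in low_Pi and 63 and 75 in plus_Pi, a log2 difference of 2.19. ETC1 had 432 and 407 against 68 and 91, a log2 difference of 1.94. With a pseudocount of 208, CPL3 was at 1.27 and ETC1 at 1.13. CPC itself, described above, went the other way. The CPL3 to CPC ratio was 2.56 and 2.45 in low_Pi and 0.228 and 0.25 in plus_Pi.

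Per kb of exon, the R3 MYB genes listed here (CPC, TRY, ETC1, ETC2, CPL3 and TCL1) summed to 1469 in low_Pi and 617 in plus_Pi. CPC made up 61.2% of the sum in plus_Pi and 16.5% in low_Pi. CPL3 made up 48.7% and ETC1 33.4% in low_Pi, against 17.3% and 15.1% in plus_Pi. TRY, another R3 MYB gene, was listed at 19 in both low_Pi columns and 36 in both plus_Pi columns, under the minimum, and ETC2 and TCL1 were listed at 0 in every column. The leading gene of those R3 MYB genes listed was therefore CPC in plus_Pi and CPL3 in low_Pi. P1BS was present within 1000 bases upstream of 6 of the 14 other cell fate genes, or 42.9%, against 20.3% of all genes. These were CPL3 and ETC1 but also TTG1, MYC1, SCM and TCL1. The first 3 of those were under 2-fold, and TCL1 was at 0 as given above. In the same window, P1BS was in 46.2% of the 13 upstream inputs and 13.6% of the 22 hair growth genes described below. It was in 25% of the 4 other RSL and LRL genes, 20% of the 15 markers of other cells and 2 of 2 phosphate starvation markers. The CPL3 and ETC1 stretches are shown for comparison with RSL2.
CPL3: tcttgccttggGGATATTCccttcgtggac
ETC1: aggaataaaggGTATATCCtcgacgttaaa
The CPL3 stretch is chr4:459440-459469 on the plus strand, 937 to 944 bases upstream, and the ETC1 stretch is chr1:146539-146568 on the plus strand, 486 to 493 bases upstream. CPC had no match in that window.

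The partners of WER were under 2-fold. GL3, EGL3 and TTG1 were at -0.07, -0.49 and -0.26, and MYB23, a close relative of WER, was at -0.19. Of these, GL3, TTG1 and MYB23 were above 0 with median-of-ratios scaling, at 0.17, 0.01 and 0.04. GL3 and MYB23 were also above 0 with trimmed-mean scaling (0.16 and 0.03) and quantile normalization (0.15 and 0.0056), while TTG1 was at -8.9e-05 and -0.07. JKD, a zinc finger factor of the ground tissue that acts on epidermal patterning from below, was at -0.66, and TTG2, a WRKY factor expressed in non-hair cells, was at -0.58.

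Of 13 genes listed as upstream inputs to root hair formation, none was 2-fold apart in either direction. The list was not divided into activators and repressors, and not each gene need act through the RSL factors. Their median was -0.16, beside -0.26 for all genes. It was 0.11 with median-of-ratios scaling, beside -0.0005 for all genes, 0.10 with trimmed-mean scaling, beside -0.01, and -0.07 with quantile normalization, beside -0.08. EIN3, an ethylene response factor, and AUX1, an auxin influx carrier, had the highest means of the list. EIN3 had 7529 and 6939 in low_Pi and 7739 and 8573 in plus_Pi, a log2 difference of -0.17. AUX1 had 6499 and 6049 against 6715 and 7355, a log2 difference of -0.16. Both differences were above 0 with median-of-ratios scaling, at 0.11, and with trimmed-mean scaling, at 0.09 for EIN3 and 0.10 for AUX1. With quantile normalization they were below 0, at -0.08 for EIN3 and -0.07 for AUX1. The other genes ran from WRKY75 at -0.66 to ZFP5, a zinc finger factor of hair initiation, at 0.50, and ARF19 was at -0.39. RSL2 thus differed between the groups by more than any of the 13 listed inputs.

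Genes listed as effectors of hair growth, not each of which need act downstream of the RSL factors, were mostly higher. Of 22 such genes, 17 showed a 2-fold gain and none a 2-fold loss, beside 4.58% and 4.47% of all genes. The list median was 1.77 against -0.26 for all genes, and the list was chosen with earlier results of these data known. The largest differences were those of RHS13 (2.99), the peroxidase gene RHS19 (2.96), the wall protein gene PRP3 (2.67), the leucine-rich repeat extensin gene LRX1 (2.40), the pectin methylesterase gene RHS12 (2.40) and the proton pump gene AHA7 (2.31). PRP3 had 28167 and 25855 in low_Pi and 3904 and 4559 in plus_Pi. RSL2, at 2.38, lay within the range of these genes, whereas RSL4, at -0.30, lay below the lowest of the 22, GEF3 at -0.15. The GEF3 locus overlaps AT4G00450 on the opposite strand by 310 bases. The mean value of AT4G00450 was 4792.5 against 403 for GEF3, so without known strand use the GEF3 value may include reads of its neighbour. In bulk roots, more hair cells and more RNA per hair cell cannot be told apart, for RSL2 and LRL3 as for the listed effectors.

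**Figure D4:**
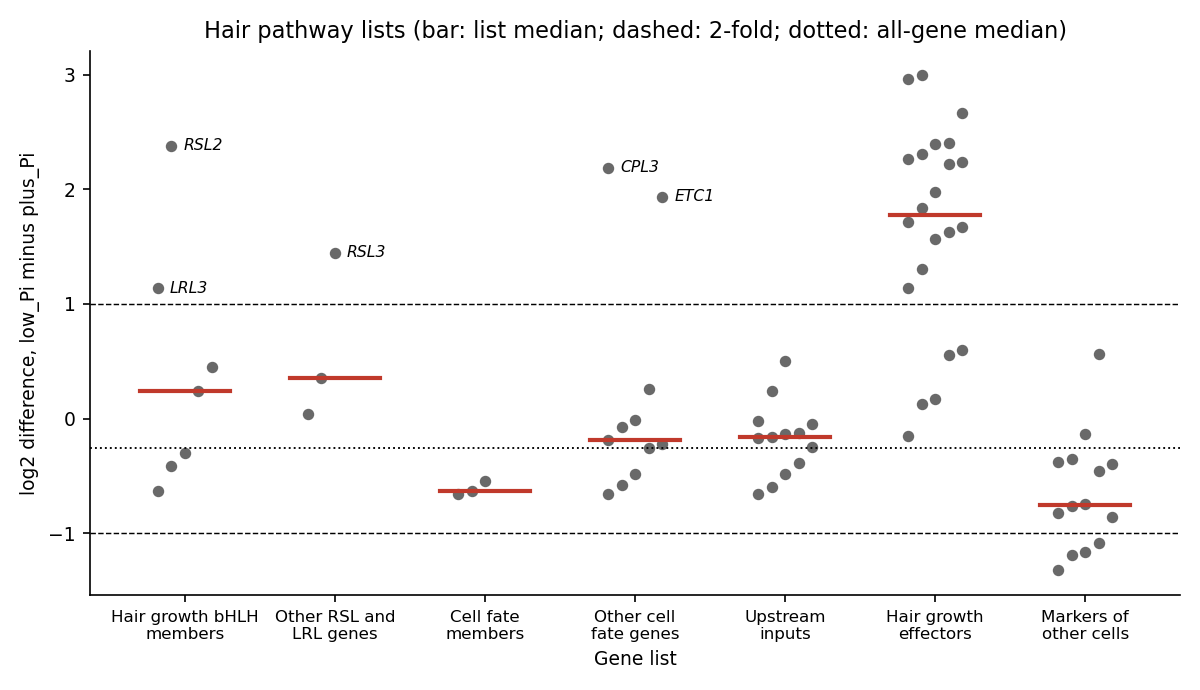
Log2 difference (low_Pi minus plus_Pi) of each gene that passed the minimum, by list, with the list median as a red bar, 2-fold as dashed lines and the all-gene median as a dotted line. The hair growth effectors centre on 1.77, while RSL2, LRL3, RSL3, CPL3 and ETC1 are the regulators past 2-fold.

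RSL bHLH factors are known to act on the root hair element, a sequence found before hair-specific genes. It was searched on both strands by its published consensus in the 250 bases before the start. Of the 22 hair growth genes 6 had a match, or 27.3%, against 0.754% of all protein-coding genes, and none of the 10 members had one. EXPA7 and EXPA18 are among the genes from which the element was described, so their matches are not independent of it. How the other genes of the list first came to be linked to hairs was not examined. Their matches within 250 or 1000 bases may therefore not be independent of the element either. The 6 stretches are shown because they hold the element that RSL factors are known to bind, with the match in capitals.
EXPA7: aaaaaggATAGTGATCCGCACGTAgccacc
EXPA18: caaaacaAACATGAACGCACGTCcattact
LRX1: ctctaggAACGTGCGTCCAAGTTtgaggaa
PRP3: gtttttgATCGTGCATTACACTTAggtatg
RHS13: acacactATAATGCGACTCACGTCgggaca
MRH6: ttttattTTCATGGCAAGCACGTTcaagaa
These stretches are chr1:4276420-4276449, chr1:23331516-23331545, chr1:4069892-4069921 and chr3:23182548-23182577 for EXPA7, EXPA18, LRX1 and PRP3, all on the plus strand, and that of EXPA18 overlaps the neighbouring gene AT1G62978. RHS13 is chr4:993227-993256 on the minus strand and MRH6 chr2:1132040-1132069 on the plus strand. In LRX1 and PRP3 the element lies on the strand opposite to the one shown. All 6 genes were at least 2-fold higher in low_Pi, from 1.67 for EXPA7 to 2.99 for RHS13, as were 17 of the 22 with or without a match. Within 1000 bases, 10 of the 22 had a match, or 45.5%, against 2.9% of all genes. The added genes were RHS19 (2.96), LRX2 (0.60), ROP2 (0.17) and GEF3 (-0.15), of which RHS19 passed 2-fold, and none of the 10 members had a match in that window.

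Levels of the members were also ordered per kb of exon. In plus_Pi the order was LRL1 (2248), LRL3 (737), RSL2 (603), LRL2 (582), WER (478.5), RHD6 (399), CPC (377.5), GL2 (283), RSL4 (213) and RSL1 (137). RSL2 and LRL2 overlapped between columns, as did RHD6 and CPC. In low_Pi the order was RSL2 (3269), LRL3 (1658), LRL1 (1439), LRL2 (692), RHD6 (555), WER (289), CPC (242), GL2 (177), RSL4 (167) and RSL1 (94.9). GL2 and RSL4 overlapped between columns there. RSL2 thus went from the third to the first place, and RSL1 held the last place in both groups.

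Most markers of other cells were lower in low_Pi, as were WER, GL2 and CPC and at least 70.8% of all genes compared. Of 15 such markers 14 passed the minimum. Their median was -0.75, beside -0.26 for all genes, and -0.51 with median-of-ratios scaling, beside -0.0005. By tissue, medians were -1.18 for green tissue, -0.76 for the meristem, -0.39 for the root cap and -0.13 for the endodermis. SHR of the stele was at -0.38. Of the 14 markers, 4 showed a 2-fold loss and none a 2-fold gain. Those 4 were CA1 (-1.32), GAPB (-1.19) and PSAF (-1.16) of green tissue and SMB (-1.08) of the root cap, and with median-of-ratios scaling SMB was at -0.84, GAPB at -0.996 and PSAF at -0.90. The meristem markers WOX5, PLT1 and PLT2 summed to 518 and 479 in low_Pi against 891 and 987 in plus_Pi. The summed level of the 15 was 18144 and 16798 in low_Pi and 15987 and 17663 in plus_Pi, with CASP1 of the endodermis as its largest term. CASP1 was the marker above 0, at 0.56. GL1, the trichome relative of WER, was listed at 0 in low_Pi and at 4 in both plus_Pi columns. The part of these markers in the lower values of WER, GL2 and CPC was not tested.

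Because IPS1 was higher in plus_Pi replicate 2, members were also compared with each plus_Pi library. Against plus_Pi replicate 1 alone, RSL2 was at 2.47 and LRL3 at 1.21, and against replicate 2 alone at 2.29 and 1.06. Over 4 omissions of a library, 3 scalings and 2 pseudocounts, RSL2 ran from 2.18 to 2.65 and LRL3 from 1.02 to 1.41, both past 2-fold throughout. RSL4 ran from -0.36 to -0.07 and WER from -0.73 to -0.41.

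**Figure D5:**
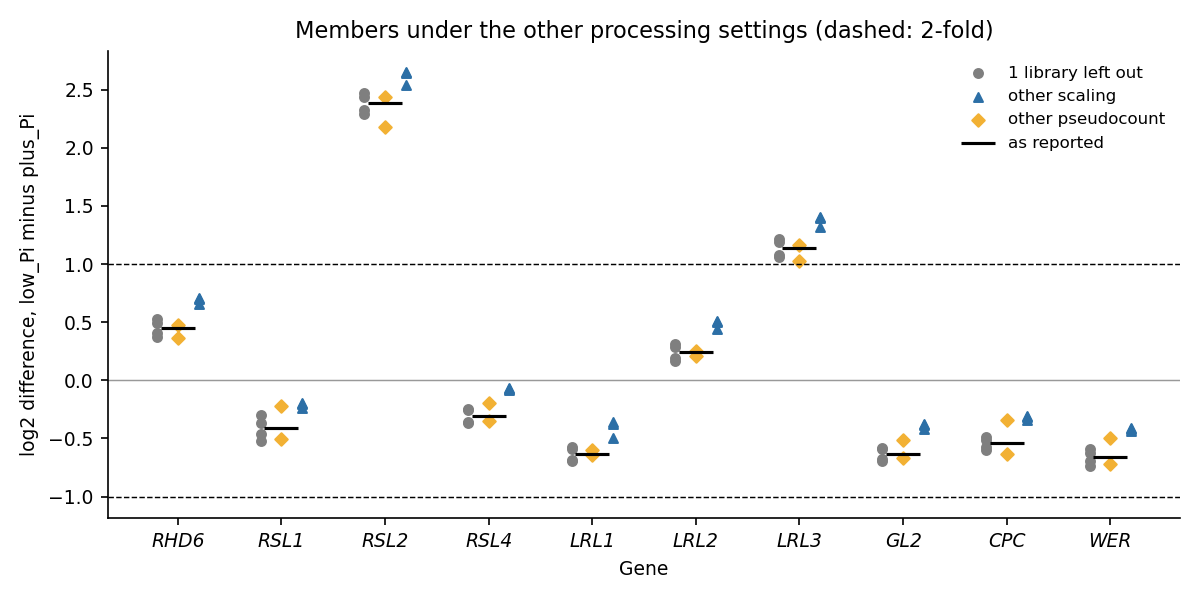
Log2 difference (low_Pi minus plus_Pi) of each member as reported (black dash), with 1 library left out (grey circles), with another scaling (blue triangles) and with another pseudocount (yellow diamonds). RSL2 and LRL3 stay above the dashed 2-fold line, and no member crosses 0.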

How the data were processed

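Polyadenylated RNA of 4 root libraries was sequenced, per the labels' protocols. The authors deposited 1 table of whole numbers that its name calls normalized counts, here treated as a score without known depth. How they were normalized is not given in the sources used here. No count model was fitted. Tools named in the submitters' processing notes, with no role stated, are HISAT2, HTSeq, edgeR, FastQC and CASAVA 1.4. Genome build, annotation and strand are not given in the sources used here.

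Values were used as deposited. The pseudocount and the minimum mean were both 41.5, set in proportion to the mean column total. Since the independence of same-group columns is not known, each group was cautiously counted as 1 sample, and genes were called by size (2-fold) and not by a test. Members and gene lists were chosen with earlier results of these data known. Of each list, up to 6 genes past 2-fold, or the 2 with the highest mean, were named, and others are examples named after their values were seen. Upstream windows and exon lengths came from RefSeq's TAIR10.1 annotation, which held 27445 of the 27655 identifiers. Upstream windows may reach into neighbouring genes. The calculation was run on simulated read counts with known changes. Such a run checks the code only, since the deposited values have no known depth. Alternatives covered pseudocount, filter, scaling, fold size and omission of each library. A limma 3.58.1 fit (R 4.3.3, variance trend) over the 4 columns was run for counts of calls only.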

Additional observations from a re-analysis of the deposited data

How the results depend on the processing

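No member changed sign or side of the 2-fold line under the other pseudocounts, scalings, filters or omissions of 1 library; with the higher minimum of 208, RSL1 was not kept. With a 1.5-fold rule, 3 members (WER, LRL1 and GL2) were lower. Over all genes, those at least 2-fold higher numbered 565 with a pseudocount of 208 and 1643 at 1.5-fold. Those lower numbered 1310 and 350 with pseudocounts of 4.15 and 208, 428, 440 and 502 with median-of-ratios, trimmed-mean and quantile scaling, and 3885 at 1.5-fold. If the 4 columns are taken as separate samples, limma called 12951 genes (69.1%) and 9 of 10 members, LRL2 excepted. With the replicate block it called 7208 genes (38.5%) and 7 members, without RHD6, RSL4 and LRL2. No label ties a replicate number to a batch, and same-numbered columns deviated with a correlation of -0.11 across genes. IRE, a kinase gene of hair growth, was at 0.97 with a pseudocount of 208. Without a known depth, no counting error can be given.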
